A study of Mus musculus with 40 samples.

Results

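The untreated glands of this series were the 20 libraries labelled Control, of 40 libraries in all, with 5 mice at each of 60 h, 84 h, 108 h and 132 h after the start of the experimental diets. They were chosen by those labels alone, and no estrogen-treated or CLA-fed library (CLA is conjugated linoleic acid) entered a comparison of times, except where the text names the treated libraries or a fit of all 40. All 20 came from Balb/cJ mice whose ovaries were removed at 21 d of age and which then had 7 d of recovery and a defined control diet (AIN 93G based), so the computed ages at sampling were 30.5, 31.5, 32.5 and 33.5 d. RNA was taken from the number 4 inguinal mammary gland, between the teat and the site of the excised lymph node. The 60 h and 84 h groups were the counterparts of the estrogen groups, and the 108 h and 132 h groups those of the CLA groups. Every mouse lacked ovaries and was sampled at a single time, so each difference below is between mice, in a gland already without ovarian hormones and with no library from the start of the diets. The authors deposited 60 h and 108 h in the first count table and 84 h and 132 h in the second. The steps of 48 h from 60 h to 108 h and from 84 h to 132 h lie within a table, while each step of 24 h crosses tables.

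The virgin mammary gland is a fat pad of white adipocytes, fibroblasts, vessels, nerves and immune cells, with a small branching tree of epithelium that has a luminal and a basal, myoepithelial layer. Estrogen from the ovaries normally drives the ducts to grow into the fat pad at puberty, through the estrogen receptor in luminal cells and amphiregulin (Areg) released from them, and ovariectomy before puberty leaves a rudimentary tree. Adipocytes take up glucose, make and break down triglyceride, and follow feeding, insulin, glucocorticoids and the circadian clock, a loop in which CLOCK and BMAL1 (Arntl) switch on their own repressors. The question of the comparison is how far untreated glands differed with time alone.

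Fat cell genes were abundant in every library. The mean of 18 mature adipocyte genes was between 9.83 and 10.4 on the log2 CPM scale (CPM, counts scaled by TMM to a common library size) in all 20. The luminal list (21 genes) lay between 0.0277 and 3.99, the basal list (15 genes) between 2.61 and 6.15 and the milk protein list (4 of 10 genes tested) between -2.70 and 1.66. The basal list was highest in 132 h replicate 1, which also had the highest mean of the skin and hair list described below (6.33). Its level can thus not be taken as that of gland epithelium alone. Depth was 18.2 to 35.6 M counts per library, with means of 32.7 ± 1.89 M at 60 h, 28.7 ± 3.92 at 84 h, 31.3 ± 2.97 at 108 h and 24.4 ± 4.13 at 132 h (SD, n = 5), and 20707 to 22621 genes had a count.

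Several libraries carried markers of neighbouring tissue. The skin and hair list (26 genes, 21 tested, led by hair keratins such as Krt86) averaged between -3.31 and -0.67 log2 CPM at 60 h and between -3.21 and 1.30 at 84 h. At 108 h its values for replicates 1 to 5 were 4.33, 5.57, -2.81, -2.05 and 1.71, and at 132 h they were 6.33, 4.71, 4.92, -1.31 and -2.70. The list summed to 7.31 to 36.2 CPM at 60 h, and its lowest and highest sums at 132 h were 7.76 and 3373 CPM. The 6 libraries above 1.5 were 3 of the 5 at 108 h and 3 of the 5 at 132 h, and Krt85 and Flg were not among the genes of the tables. Skeletal muscle genes (18 tested) were highest in 84 h replicate 5 (6.42), 132 h replicate 2 (5.64), 132 h replicate 1 (4.09) and 108 h replicate 1 (3.05), against a lowest value of -1.98. In 132 h replicate 1 the liver gene Alb stood at 2894 CPM, against 40.3 to 81.1 in the other 19 libraries, and Ahsg at 332 CPM against at most 0.603. Interferon response genes averaged 6.78 in 60 h replicate 2 and 3.51 to 4.22 in the other 60 h libraries.

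**Figure D1:**
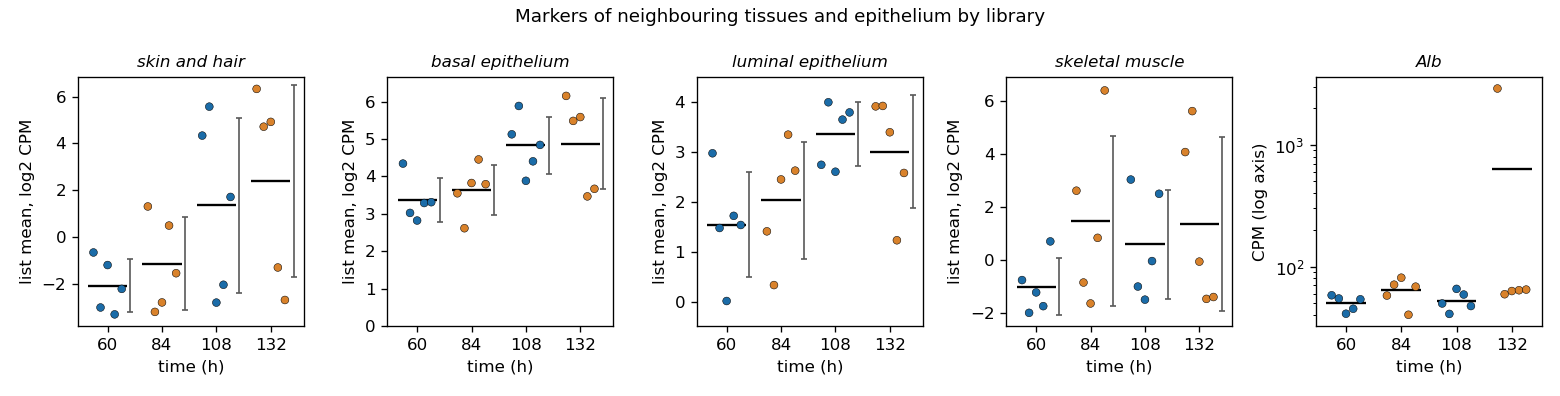
Mean log2 CPM of 4 marker lists, and CPM of the liver gene Alb on a log axis, in each of the 20 untreated libraries by time. Points are libraries (blue, the first count table; orange, the second), black lines are means and grey bars SDs (not drawn for Alb). The skin and hair list exceeds 1.5 in 3 libraries at 108 h and 3 at 132 h, and Alb reaches 2894 CPM in 1 library at 132 h.

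Across the 4 times, 1484 of 17204 tested genes (8.63%) differed at an adjusted p below 0.05 (edgeR quasi-likelihood F test, 20 libraries in 1 fit). Of the 1484, 394 (26.5%) were highest at 60 h, 196 (13.2%) at 84 h, 445 (30%) at 108 h and 449 (30.3%) at 132 h. Of all tested genes, 25.3%, 21.6%, 26.5% and 26.6% were highest at these times. The within-table comparison of 108 h with 60 h called 194 genes (1.13%), 73 higher (0.424%) and 121 lower (0.703%) at 108 h, and the groups did not overlap for 933 genes (5.42%). The matching comparison of 132 h with 84 h called 0 genes (0%), with 2182 at an unadjusted p under 0.05, no overlap for 297 genes (1.73%) and 346 genes called by DESeq2. The same comparison called 146 genes by edgeR with the runs of numbers in the sample titles as a term, and 410 with all 40 libraries in the fit. The 24 h steps called 37 genes (0.215%, 7 higher and 30 lower) from 60 h to 84 h, 570 (3.31%, 305 or 1.77% higher and 265 or 1.54% lower) from 84 h to 108 h and 549 (3.19%, 125 higher and 424 lower) from 108 h to 132 h. With upper-quartile scaling the split was 82 higher and 52 lower from 60 h to 108 h, and 345 higher and 178 lower from 84 h to 108 h. These comparisons share libraries, so their counts are not independent. Without the 6 libraries high in skin and hair genes, 49 genes differed across the times, 9 between 60 h and 108 h, 0 between 84 h and 132 h, 9 from 60 h to 84 h, 23 from 84 h to 108 h and 260 from 108 h to 132 h. The part of skin in these differences was not tested.

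**Figure D2:**
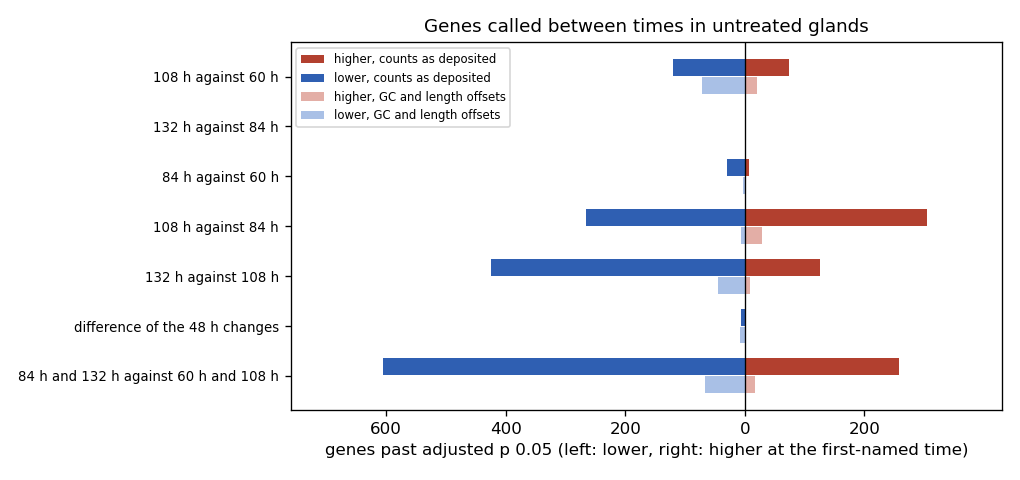
Number of genes called lower (left) and higher (right) at the first-named time, at adjusted p below 0.05, in each comparison of untreated libraries. Dark bars are counts as deposited and pale bars the same test with offsets for GC content and transcript length. The largest total is the 863 genes between the tables, a contrast with more libraries per side than the steps between single times. That total becomes 84 with the offsets, and 132 h against 84 h has 0 genes in both.

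Between 60 h and 108 h, a minority of the genes of glucose use, fat synthesis, fat oxidation and respiration passed the test, each lower at 108 h, where 0.703% of all genes were lower. None of the 16 glucose uptake and glycolysis genes lay above 0, with a median log2 difference of -0.42 against 0.005 over all genes, and 4 fell, namely Hk2, Gpi1, Ldhb and Gapdh. In oxidative phosphorylation, 0 of 22 genes lay above 0 (median -0.29) and 3 fell, in fatty acid oxidation 6 of 19 lay above 0 (median -0.28) and 2 fell (Hadha and Acadvl), and in fatty acid and triglyceride synthesis 4 of 22 lay above 0 (median -0.40) and 2 fell (Acacb and Gpam). No member of these lists rose. With GC and length offsets, described below, the numbers called became 1 for glycolysis, 2 for oxidative phosphorylation and 0 for fatty acid oxidation and for synthesis. Without the 6 libraries high in skin genes they were 1, 0, 1 and 0.

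Hk2, hexokinase 2, which commits glucose to use in muscle and fat, lies on chr6:82725025-82774454 (GRCm38, minus strand). Its level was 698, 238, 438, 923 and 661 CPM at 60 h and 275, 195, 200.1, 175 and 211 CPM at 108 h. In the second table it was 269.6, 422, 603, 224 and 178 CPM at 84 h and 339.8, 186, 334, 281 and 231 CPM at 132 h. Only replicate 2 of 60 h lay within the range of 108 h, and the groups of the second table overlapped. The fall from 60 h to 108 h was -1.49 ± 0.34 (SE, log2; adjusted p = 0.0444, edgeR). Gpi1, which turns glucose 6-phosphate into fructose 6-phosphate, changed by -0.43 ± 0.10 (adjusted p = 0.0471), and Ldhb, a lactate dehydrogenase subunit, by -0.46 ± 0.11 (adjusted p = 0.047). Gapdh changed by -0.98 ± 0.23 (adjusted p = 0.0474), but it was counted at 4.28 to 15.8 CPM in these groups and has many near-identical pseudogenes, so its count is uncertain.

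Further genes were picked by hand and belong to no list. Ppp1r3c, the subunit that brings protein phosphatase 1 to glycogen, was 223, 77.7, 228, 269 and 209 CPM at 60 h and 91.7, 62.1, 51.6, 58.7 and 75.7 CPM at 108 h, against 65.4, 94.8, 153, 74.3 and 37.0 CPM at 84 h. At 60 h, 4 of the 5 values lay above every value at 108 h, and the change was -1.57 ± 0.36 (adjusted p = 0.0444, edgeR). The pyruvate dehydrogenase complex, which passes pyruvate to the mitochondrial acetyl-CoA pool, had 3 genes called, Pdha1 (-0.54 ± 0.12, adjusted p = 0.0418), Pdhx (-0.46 ± 0.11, 0.0444) and Dld (-0.34 ± 0.08, 0.0429). The mitochondrial pyruvate carrier gene Mpc1 changed by -0.58 ± 0.14 without passing (adjusted p = 0.0532). Sh2b2, an adaptor of the insulin receptor, changed by -0.95 ± 0.21 (adjusted p = 0.0424), and Bcar1, a scaffold of focal adhesions, by -0.97 ± 0.19 (adjusted p = 0.0277). Bcar1 averaged 93.4 ± 30.0 CPM at 60 h, 49.9 ± 7.13 at 84 h, 47.5 ± 5.30 at 108 h and 56.5 ± 10.9 at 132 h (SD, n = 5). Ppp1r3c, Pdha1, Pdhx, Dld, Mpc1, Sh2b2 and Bcar1 were chosen after their values were seen.

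The clock repressor genes Bhlhe40 and Bhlhe41 had their highest means at 60 h. Bhlhe40 (chr6:108660629-108666925, plus strand) and Bhlhe41 (chr6:145858243-145865558, minus strand) encode related transcription factors that bind the E-box CACGTG and repress genes switched on by CLOCK and BMAL1. Bhlhe40 was 289, 49.2, 153, 190.1 and 188 CPM at 60 h and 60.8, 35.9, 47.0, 27.9 and 27.4 CPM at 108 h. At 84 h it was 27.5, 26.0, 49.1, 39.8 and 32.4 CPM and at 132 h 153, 25.0, 88.9, 25.0 and 50.1 CPM. Replicate 2 of 60 h fell among the values of the other times, and replicates 1 and 3 of 132 h stood above the rest of theirs. The change from 60 h to 108 h was -2.13 ± 0.50 (adjusted p = 0.0474, edgeR). Bhlhe41 was 68.4, 29.3, 23.3, 57.4 and 43.6 CPM at 60 h, and its means were 44.4 ± 18.8, 17.0 ± 5.77, 22.1 ± 2.90 and 19.8 ± 6.38 CPM in time order (SD, n = 5). It differed across the 4 times (adjusted p = 0.0211) but not between 60 h and 108 h alone (adjusted p = 0.0747).

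Of the 19 clock genes tested, 1 fell at 108 h (0.703% of all genes were lower), and 3 differed across the 4 times (Bhlhe40, Bhlhe41 and Clock), where 8.63% of all genes did. With GC and length offsets the counts were 0 and 2. Clock had means of 126 ± 6.25, 115 ± 7.09, 112 ± 10.9 and 104 ± 6.30 CPM (SD, n = 5; adjusted p = 0.0437 across the times). Arntl averaged 53.5, 46.6, 50.6 and 47.8 CPM (adjusted p = 0.826), Per2, a clock repressor, 35.3, 31.3, 26.5 and 26.6 CPM (0.892) and Dbp, a clock output gene, 7.62, 8.85, 8.84 and 12.9 CPM (0.545). The groups were 24 h apart, so they differ in day and not by design in the hour of day, which the labels do not give.

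The promoters of Bhlhe41 and Ppp1r3c are shown because both genes were high at 60 h and both windows hold the E-box. Each run is the 250 bases before the RefSeq start site (GRCm38.p6), 5′ to 3′ on the gene's strand, at chr6:145865421-145865670 (minus strand) and chr19:36736605-36736854 (minus strand), with the motif in capitals.
Bhlhe41: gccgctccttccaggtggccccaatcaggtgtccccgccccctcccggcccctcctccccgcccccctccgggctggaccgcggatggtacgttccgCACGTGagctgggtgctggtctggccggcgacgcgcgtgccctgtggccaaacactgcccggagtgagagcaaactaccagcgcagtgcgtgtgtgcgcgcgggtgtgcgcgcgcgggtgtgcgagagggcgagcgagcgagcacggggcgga
Ppp1r3c: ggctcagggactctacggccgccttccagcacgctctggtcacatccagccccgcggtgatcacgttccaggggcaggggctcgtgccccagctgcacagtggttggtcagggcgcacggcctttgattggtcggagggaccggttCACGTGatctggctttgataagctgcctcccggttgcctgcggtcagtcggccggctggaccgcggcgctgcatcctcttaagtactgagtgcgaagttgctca
The motif begins 153 bases before the start site in Bhlhe41 and 104 bases before it in Ppp1r3c, 1 match in each. CACGTG is its own reverse complement, so 1 search covers both strands. It was found in 6.02% of all 32851 promoter windows of this length, in 7.59% of those of tested genes, in 8.93% (10 of 112) of those of genes lower at 108 h and in 5.48% (4 of 73) of those of genes higher at 108 h. A match describes the letters of the window and is not a measured binding site.

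Some genes of mitochondrial fat use and respiration fell at 108 h against both earlier times, 2 and 4 of 19 fatty acid oxidation genes and 3 and 7 of 22 oxidative phosphorylation genes against 60 h and 84 h. Of all genes, 0.703% and 1.54% were lower in these comparisons. Against 84 h, a step that crosses tables, the fatty acid oxidation calls became 0 with GC and length offsets. They became 1 without the 6 libraries high in skin genes. Acacb, the acetyl-CoA carboxylase of the mitochondrial surface (chr5:114146535-114250761), was 849, 1084, 1036, 1214 and 933 CPM at 60 h and 1117, 1055, 1164, 922 and 1107 CPM at 84 h. It was 624, 603, 768, 662 and 795 CPM at 108 h and 748, 819, 1015, 1027 and 978 CPM at 132 h. No 108 h value reached the lowest value of 60 h or 84 h, while 108 h and 132 h overlapped in replicate 1 of 132 h. Its change was -0.57 ± 0.11 against 60 h (adjusted p = 0.026), -0.64 ± 0.11 against 84 h (0.00475) and 0.41 ± 0.11 from 108 h to 132 h (0.0477, edgeR). Hadha, the alpha subunit of the trifunctional enzyme of fatty acid oxidation, averaged 1307 ± 58.1, 1302 ± 46.5, 950.4 ± 87.7 and 1213 ± 177 CPM (SD, n = 5), with all 5 values at 108 h below every value at 60 h and 84 h. It changed by -0.46 ± 0.09 against 60 h (adjusted p = 0.0257), -0.45 ± 0.09 against 84 h (0.00728) and 0.35 ± 0.09 from 108 h to 132 h (0.0297). Acadvl (-0.45 ± 0.09, adjusted p = 0.0318 against 60 h), Cpt1b (-0.59 ± 0.15, 0.0339 against 84 h) and Acads (-0.32 ± 0.08, 0.036 against 84 h) belong to the same pathway. From 108 h to 132 h no gene of the fatty acid oxidation or synthesis list passed with GC and length offsets. The synthesis list, which holds Acacb, also had no call against 84 h with the offsets. Without the 6 libraries high in skin genes the synthesis list had no call in either of these steps.

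Ndufs1, a core subunit of respiratory complex I, was 183, 194, 206, 215 and 206 CPM at 60 h and 167, 126, 159.8, 156 and 142 CPM at 108 h. The groups did not overlap, and the change was -0.42 ± 0.08 (adjusted p = 0.0267, edgeR). Uqcrc2 of complex III fell with it (-0.41 ± 0.09, adjusted p = 0.037). Against 84 h, 7 of the 22 oxidative phosphorylation genes were lower at 108 h (among them Atp5a1, Atp5b, Ndufs1, Sdha, Uqcrc1 and Uqcrc2), where 1.54% of all genes were lower. None of the 22 passed against 84 h with GC and length offsets, or without the 6 libraries high in skin genes. From 108 h to 132 h none of the 22 passed, although 21 lay above 0 (median 0.23). Without those 6 libraries, 16 of the 22 passed in that step, and 6 of 19 fatty acid oxidation genes in place of 1.

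Transcripts of the mitochondrial genome followed. mt-Nd4l, a small subunit of complex I, averaged 24.3 ± 1.44, 22.7 ± 1.43, 16.2 ± 1.96 and 23.2 ± 3.79 CPM in time order (SD, n = 5). Its 108 h values of 19.1, 13.6, 16.4, 16.1 and 15.6 CPM lay below all values of the other times. In counts mt-Nd4l changed by -0.59 ± 0.10 from 60 h to 108 h (adjusted p = 0.0145), by -0.49 ± 0.10 from 84 h (0.0116) and by 0.52 ± 0.10 from 108 h to 132 h (0.00532, edgeR). Its counts stood at 0.0139 times what its RPKM and transcript length give, against a median of 1.71 over genes, so its count is uncertain. Its RPKM means were 5745, 5355, 4304 and 5359 in time order, also lowest at 108 h. In RPKM, however, replicate 1 of 108 h (4728) lay above replicate 2 of 132 h (4689). Of the 13 mitochondrial genes tested, 4 fell from 60 h to 108 h (mt-Co1, mt-Nd2, mt-Nd4l and mt-Nd5), where 0.703% of all genes were lower, and 1 was called without the 6 libraries high in skin genes. mt-Atp8 went another way, with means of 1952 ± 418, 1233 ± 142, 1545 ± 116 and 1001 ± 164 CPM, lower in the second table (-0.64 ± 0.10, adjusted p = 0.000734). With GC and length offsets, 3 of the 13 genes were called from 60 h to 108 h, where 0.542% of all genes were. With them none of the 13 was called from 84 h to 108 h, from 108 h to 132 h or between the tables. The share of all counts on the mitochondrial genome was 9.76% ± 0.756 at 60 h, 8.46% ± 0.115 at 84 h, 7.76% ± 0.546 at 108 h and 8.59% ± 0.833 at 132 h (SD, n = 5). The 60 h share was above that of 84 h and of 108 h (exact 2-sided permutation test over libraries, p = 0.0079 each, the smallest 5 against 5 allow; 0.0238 after adjustment over 6 pairs of times). The other 4 pairs did not pass (adjusted p from 0.0833 to 0.77). The 84 h difference did not pass on leaving out any 1 library of 84 h (adjusted p = 0.0714), while its size was -1.25 to -1.33 percentage points against -1.29 with all. Without the libraries high in skin genes the 108 h difference was -2.42 percentage points against -1.99 with all, and the 2 libraries then at 108 h are too few for the test to pass after adjustment. The fall of 84 h and 108 h against 60 h was also seen as a share of deposited RPKM, 42.9%, 39.1%, 37.7% and 39.3% in time order.

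**Figure D3:**
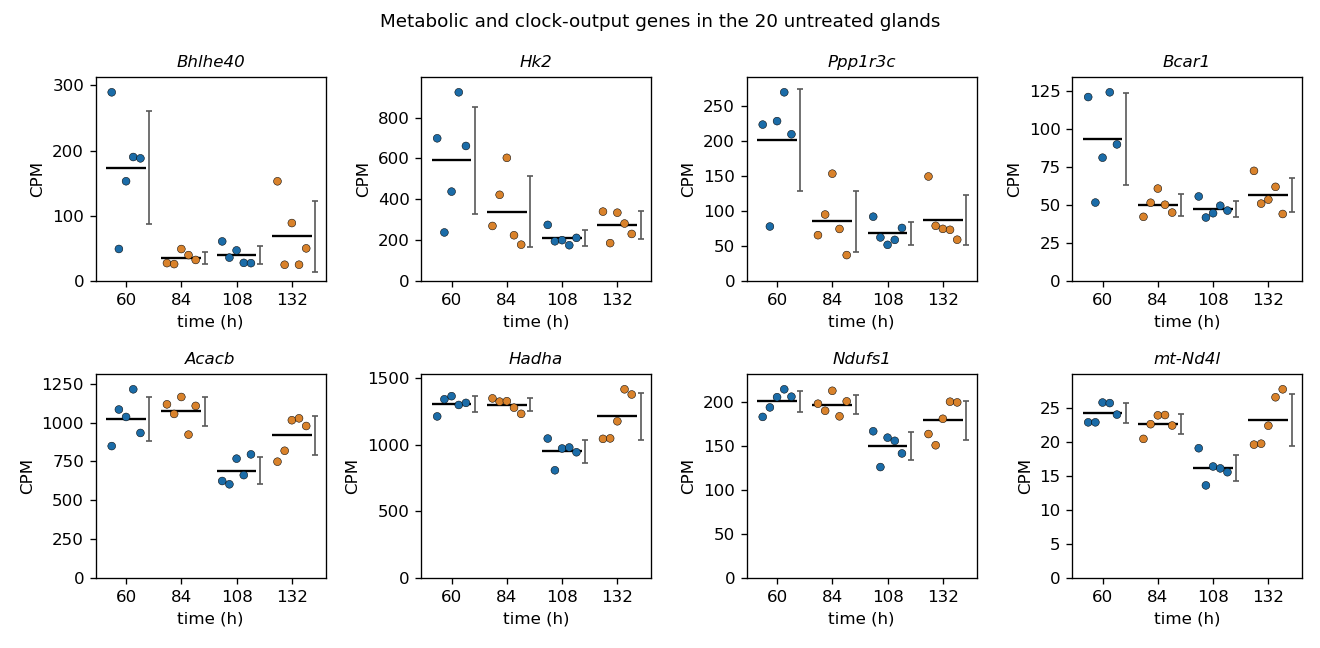
CPM of 8 genes in each of the 20 untreated libraries by time. Points are libraries (blue, the first count table; orange, the second), black lines are means and grey bars SDs of 5 libraries. Bhlhe40, Hk2, Ppp1r3c and Bcar1 are high in 4 of the 5 libraries at 60 h, and Acacb, Hadha, Ndufs1 and mt-Nd4l are lowest at 108 h.

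Many of these calls stood close to the threshold. On leaving out 1 library at a time, the 108 h against 60 h call was lost for Bhlhe40 in 14 of 20 cases (adjusted p up to 0.127), Ppp1r3c in 14 (0.134), Hk2 in 12 (0.139), Bcar1 in 5 (0.0895), Acacb in 5 (0.0893), Hadha in 6 (0.0709), Ndufs1 in 6 (0.0893) and mt-Nd4l in 0 (0.0455). None of these 8 passed with the skin and hair mean as a term, or with the runs of numbers in the sample titles (11 to 43, 78 to 94 and 112 to 121) as a term. With upper-quartile scaling the calls of Bhlhe40, Hk2 and Ppp1r3c were lost as well. The titles of 60 h fall in the second run for 4 of 5 libraries and those of 108 h in the first and the third, and the labels do not say what the numbers mean.

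Among genes whose 60 h and 108 h groups did not overlap, the large falls included those of Fbln7, Cnst and Lsm11. Fbln7, an extracellular matrix glycoprotein, averaged 23.1 ± 4.83, 17.9 ± 2.66, 14.0 ± 1.70 and 17.0 ± 1.09 CPM in time order (SD, n = 5; -0.72 ± 0.13, adjusted p = 0.0166, edgeR). Cnst, which helps carry connexins to the membrane, averaged 149 ± 37.0, 131 ± 23.9, 90.7 ± 8.70 and 112 ± 18.7 CPM (-0.71 ± 0.16, adjusted p = 0.0418), and Lsm11, part of the complex that processes histone mRNA, 26.4 ± 5.14, 20.5 ± 4.99, 16.2 ± 1.47 and 17.9 ± 3.05 CPM (-0.71 ± 0.16, adjusted p = 0.041). The largest rises by the same rule, those of Afm, Rtkn, Nkain2 and Ntm, were not called in RPKM (adjusted p from 0.292 to 1).

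From 60 h to 84 h the genes named by rule were few. Smkr-ps rose from 1.81 ± 0.468 to 5.07 ± 1.36 CPM (1.49 ± 0.27, adjusted p = 0.0355, edgeR). Nrip1, a corepressor of nuclear receptors in fat, was 67.3, 95.9, 132, 87.7 and 93.7 CPM at 60 h and 178, 172, 157, 144 and 144 CPM at 84 h, without overlap (0.74 ± 0.15, adjusted p = 0.044), and averaged 123 ± 21.8 and 109.5 ± 14.0 CPM later. Arrdc3, an arrestin-related protein, rose from 39.4 ± 4.17 to 62.5 ± 13.3 CPM (0.67 ± 0.13, adjusted p = 0.044). Genes that fell included St8sia4 (-0.62 ± 0.12, adjusted p = 0.044) and Plekhh3 (-0.51 ± 0.08, adjusted p = 0.0334). The count of 37 ranged from 0 to 126 on leaving out 1 library at a time, being 0 without 84 h replicate 2, 1 without 60 h replicate 1 or 4 or 84 h replicate 1 or 4, and 126 without 60 h replicate 5. From 108 h to 132 h the largest rises outside Rn18s-rs5 were Cml1 (0.86 ± 0.23, adjusted p = 0.0441), Pbld2 (0.75 ± 0.18, 0.0321) and Adck3 (0.64 ± 0.15, 0.0242). Cml1 and Pbld2 were highest in 132 h replicate 1, the library with liver genes, at 7.46 and 23.4 CPM, against at most 3.48 and 15.5 CPM in the other 132 h libraries. Without it Cml1 was at 0.51 (adjusted p = 0.0776) and Pbld2 at 0.57 (adjusted p = 0.0638), and neither passed. Ahsg was also called in that step (8.79 ± 2.11, adjusted p = 0.0321) on the 1 library with liver genes. Ahsg was chosen after its values were seen.

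No gene was called between 84 h and 132 h in the edgeR fit of the 20 untreated libraries without added terms. In that fit the difference between both 48 h changes passed for 8 genes (0.0465%, 2 or 0.0116% above 0 and 6 or 0.0349% below), of 1417 at an unadjusted p under 0.05. Plekhh3 had means of 57.7 ± 4.77, 40.6 ± 2.04, 45.1 ± 6.45 and 53.5 ± 3.99 CPM in time order (SD, n = 5), a difference of 0.75 ± 0.11 (adjusted p = 0.00915). Loxl2, an enzyme that cross-links collagen, averaged 84.6 ± 7.70, 99.1 ± 4.67, 94.4 ± 3.37 and 76.6 ± 4.57 CPM, a difference of -0.53 ± 0.08 (0.00929). Lpar1, a receptor for lysophosphatidic acid, averaged 31.3 ± 3.06, 35.0 ± 1.80, 38.0 ± 2.24 and 28.8 ± 1.81 CPM, a difference of -0.56 ± 0.09 (0.0165). In Plekhh3, Loxl2 and Lpar1, 84 h and 108 h stood on 1 side of 60 h and 132 h, which is the pattern this difference measures. None of these 3 passed in RPKM (adjusted p = 0.111, 0.148 and 0.129). Ntm, Pde1c and Cntnap2, which were also called, are described below with their RPKM.

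Of the contrasts between groups of libraries, that between the tables had the most calls. It averages a pair of times on each side and so rests on more libraries than a step between single times. Its count is thus not on an equal footing with the counts of the steps. With 84 h and 132 h set against 60 h and 108 h, 863 genes were called (5.02%), 258 higher (1.5%) and 605 lower (3.52%) in the second table. Table and time cannot be told apart in this contrast, or in any 24 h step. Calcrl, the receptor for adrenomedullin and calcitonin gene-related peptide that is abundant in endothelium, is shown first because its call held in both units (chr2:84330626-84425411, minus strand). It was 54.7, 54.6, 56.5, 59.0 and 52.1 CPM at 60 h and 57.4, 52.8, 67.3, 59.9 and 53.1 CPM at 108 h. It was 42.0, 43.5, 44.8, 44.0 and 44.3 CPM at 84 h and 37.4, 36.3, 36.3, 32.3 and 35.2 CPM at 132 h. Every value of the second table lay below every value of the first, and 132 h lay below 84 h throughout. The difference was -0.53 ± 0.04 (adjusted p = 6.42e-07, edgeR), and -0.71 ± 0.06 from 108 h to 132 h (1.48e-06). The RPKM gave 7.37, 5.81, 8.44 and 4.79 in time order, and the call held under every alternative that was run.

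Kitl, the ligand of the Kit receptor (chr10:100015630-100100416, plus strand), was 139, 130.4, 114, 136 and 104 CPM at 60 h, 93.0, 91.1, 108, 103 and 95.2 CPM at 84 h, 133, 118, 129, 136 and 136 CPM at 108 h and 85.2, 92.4, 77.1, 86.5 and 86.0 CPM at 132 h. The ranges of 60 h and 84 h overlapped, and those of 108 h and 132 h stood apart (-0.48 ± 0.05 between the tables, adjusted p = 4.99e-05). Tmx1, a thioredoxin-like protein of the endoplasmic reticulum membrane, averaged 43.0 ± 3.63, 33.6 ± 1.61, 45.5 ± 2.99 and 32.0 ± 1.78 CPM (-0.43 ± 0.04, adjusted p = 1.79e-05). St8sia4, a polysialyltransferase, averaged 37.3 ± 3.55, 24.3 ± 2.13, 30.1 ± 4.73 and 19.8 ± 4.20 CPM (-0.61 ± 0.09, adjusted p = 0.000378).

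Base composition moved with the tables. The 605 genes lower in the second table had a median transcript GC content of 41.2%, the 258 higher genes 54.3% and all tested genes 49.6%. In the lowest of 5 equal groups of genes by GC content the median log2 difference between the tables was -0.084, and in the highest 0.069. The mean difference between low-GC and high-GC genes was 0.049 ± 0.051 at 60 h, -0.040 ± 0.039 at 84 h, 0.110 ± 0.034 at 108 h and -0.103 ± 0.046 at 132 h on the log2 scale (SD, n = 5). With offsets for GC content and transcript length in each library, which also remove any change of biological origin that follows them, 84 genes (0.495%) stayed past the threshold between the tables and 186 (1.1%) across the 4 times. The counts became 92 (0.542%, 20 higher and 72 lower) from 60 h to 108 h, 5 (0.0295%) from 60 h to 84 h, 36 (0.212%) from 84 h to 108 h, 53 (0.312%) from 108 h to 132 h and 10 (0.059%) for the difference of the 48 h changes. Calcrl, Kitl, Tmx1 and St8sia4 passed with the offsets (adjusted p from 7.15e-05 to 0.00926). The part of library GC content in the differences was not tested.

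**Figure D4:**
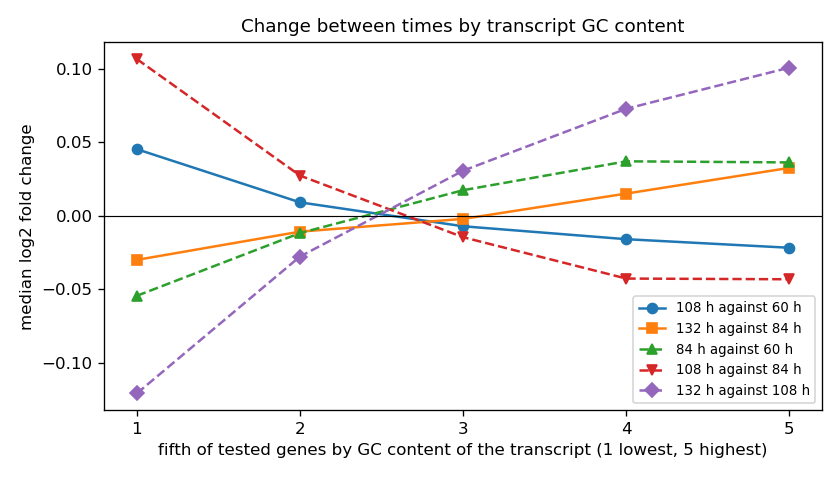
Median log2 difference of the tested genes, in 5 equal groups by GC content of the transcript from 1 (lowest) to 5 (highest), for 5 comparisons of untreated times. Solid lines lie within a count table and dashed lines cross tables. The line of 132 h against 108 h rises from -0.121 to 0.101, and that of 108 h against 84 h falls from 0.107 to -0.043.

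Some of the most significant genes were called in the counts and not in the deposited RPKM. Ntm, a cell adhesion protein of neurons (chr9:28994750-29963141, minus strand), was 3756, 3670.1, 3608, 3658 and 2528 CPM at 60 h, 2401, 2339, 2747, 2512 and 2527 CPM at 84 h, 9461, 8974, 7651, 7763 and 7986 CPM at 108 h and 3023, 2769, 3138, 2843 and 2631 CPM at 132 h. In counts 108 h stood far above the other times (1.28 ± 0.10 against 60 h, adjusted p = 6.7e-07, edgeR). In RPKM it averaged 0.170, 0.177, 0.209 and 0.171 in time order (0.21 against 60 h, adjusted p = 0.326, limma on log2(RPKM + 0.1)). Its counts stood 7590.1 times as high as its RPKM and transcript length give, against a median of 1.71 over genes. Pde1c, a calmodulin-dependent phosphodiesterase, averaged 31.7 ± 3.83, 26.6 ± 1.92, 75.5 ± 9.23 and 28.1 ± 1.54 CPM (1.25 ± 0.09 from 60 h to 108 h, adjusted p = 2.59e-07) with RPKM of 0.0280, 0.0290, 0.0359 and 0.0306 (adjusted p = 0.643). The mean RPKM of Ntm and of Pde1c was also highest at 108 h, by a smaller margin. The log2(RPKM + 0.1) scale understates changes at such low levels. Cntnap2 averaged 13.6, 12.5, 22.3 and 11.4 CPM, with RPKM of 0.00670, 0.0162, 0.0182 and 0.0121. Its RPKM was thus higher at 108 h than at 60 h, as in counts, but 84 h stood near 108 h (0.15 from 60 h to 108 h on the log2(RPKM + 0.1) scale, which understates changes at so low a level, adjusted p = 0.277, limma). Rtkn averaged 24.8, 27.0, 84.2 and 40.1 CPM, with RPKM of 2.50, 2.38, 3.07 and 3.35. Leaving out the 775 tested genes (4.5%) whose counts stood over 10 times their RPKM left 1387 genes called across the 4 times and 137 from 60 h to 108 h.

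A second set was called higher in the second table in counts and not in RPKM. Rn18s-rs5, a ribosomal RNA related sequence, was 1441, 1440.1, 1789, 1874 and 2772 CPM at 60 h, 5819, 8086, 4766, 5373 and 2516 CPM at 84 h, 1631, 2251, 1823, 4262 and 2499 CPM at 108 h and 5494, 4536, 6364, 5645 and 5816 CPM at 132 h. It was called between the tables (1.34 ± 0.20, adjusted p = 0.000565, edgeR), and not in RPKM (0.34, adjusted p = 0.079). The RPKM means of Rn18s-rs5 were 54.8, 75.2, 74.7 and 87.8 in time order, lowest at 60 h and highest at 132 h. Camk1d, a calmodulin-dependent kinase, was 145, 131, 179, 157 and 321 CPM at 60 h, 612, 622, 345, 376 and 252 CPM at 84 h, 139, 151, 193, 364 and 279 CPM at 108 h and 414, 345, 412, 448 and 402 CPM at 132 h. Both sequences were at their group's highest in 60 h replicate 5 and 108 h replicate 4 and at their group's lowest in 84 h replicate 5, so libraries within a table varied as well. Camk1d rose by 1.04 ± 0.21 in counts (adjusted p = 0.00849) and stood at -0.08 in RPKM (adjusted p = 0.802). Fgfr2 (0.81 ± 0.17, adjusted p = 0.00807), Il31ra (1.07 ± 0.24, 0.0152) and Mpped1 (1.21 ± 0.26, 0.0122) were called higher in counts and not in RPKM (adjusted p = 0.868, 0.805 and 0.96). Not given in the sources used here were the mapping and counting rules of the tables.

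**Figure D5:**
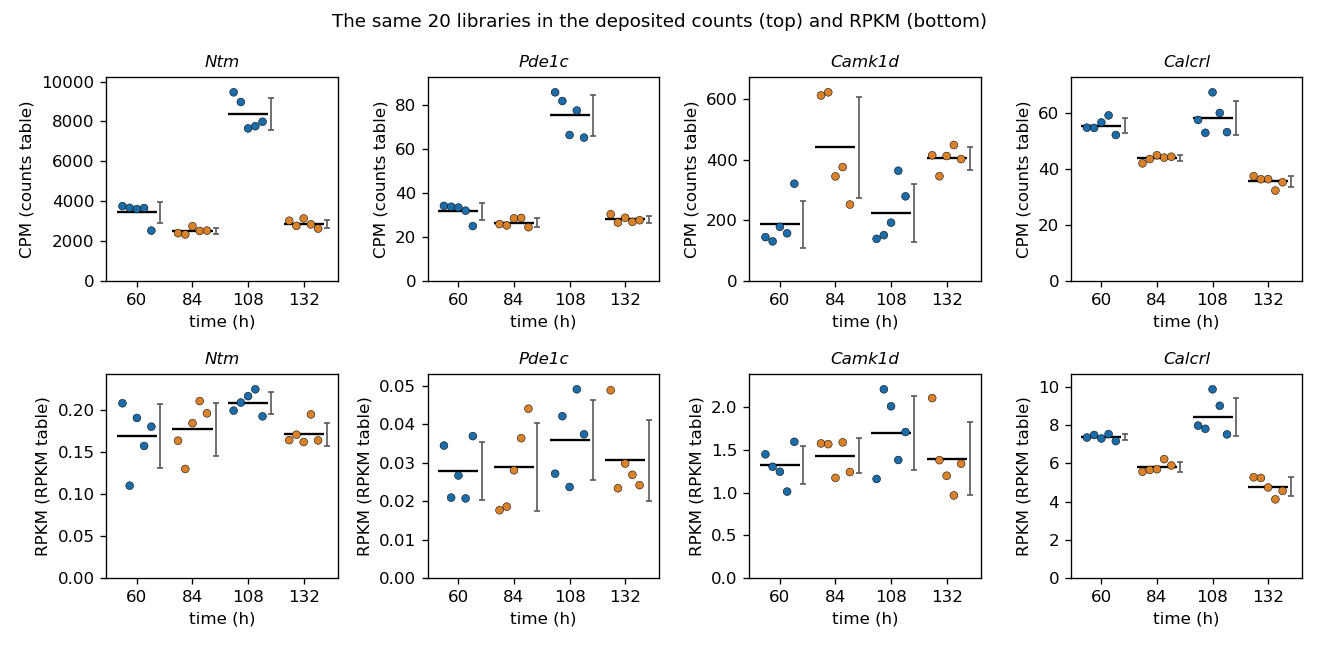
The same 20 libraries in the count tables (CPM, top) and the RPKM tables (bottom) for 4 genes. Points are libraries (blue, the first table; orange, the second), black lines are means and grey bars SDs of 5 libraries. In counts Ntm and Pde1c stand far above the other times at 108 h, and Camk1d is higher in the second table. In RPKM the means of Ntm and Pde1c are highest at 108 h by a smaller margin, and Camk1d is not higher in the second table. Calcrl is lower in the second table in both.

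Fat cell genes changed little beyond those already named. Of 18 mature adipocyte genes, 1 fell from 60 h to 108 h, where 0.703% of all genes were lower. It was Pparg, the transcription factor of adipocyte identity (-0.58 ± 0.14, adjusted p = 0.0444), with means of 368 ± 51.0, 259 ± 51.7, 246 ± 39.3 and 272 ± 33.0 CPM. The call was lost on leaving out any of 13 libraries (adjusted p up to 0.136). Lipe, hormone-sensitive lipase, was lower at 108 h than at 84 h (-0.41 ± 0.10, adjusted p = 0.0261), 1 of the 18, where 1.54% of all genes were lower. With GC and length offsets none of the 18 was called in either comparison. None was called without the 6 libraries high in skin genes. Adipoq averaged 1258 ± 41.1, 1419 ± 107, 1331 ± 102 and 1434 ± 194 CPM (adjusted p = 0.281 across the times), Lep 449 ± 139, 319.6 ± 181, 318 ± 146 and 255 ± 42.9 CPM (0.307) and Fasn, fatty acid synthase, 16473 ± 4877, 20776 ± 6909, 11641 ± 2549 and 17503 ± 6788 CPM (0.197). Dgat1, which makes triglyceride, was 0.24 ± 0.06 higher in the second table (adjusted p = 0.0334). Hsd11b1, which reactivates glucocorticoid, and Pfkl, a phosphofructokinase subunit, were lower at 108 h than at 84 h (-0.60 ± 0.15, adjusted p = 0.0419, and -0.61 ± 0.16, adjusted p = 0.0471).

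Brown and beige fat genes were readily detected. Ucp1, the uncoupling protein of thermogenic fat, was 1091, 1245, 1262, 1356 and 1422 CPM at 60 h, 845, 1309.6, 1275, 1467 and 1081 CPM at 84 h, 842, 785, 775, 829.8 and 818 CPM at 108 h and 609, 397, 779, 1174 and 1089.7 CPM at 132 h. The 108 h libraries lay close together and below all of 60 h and 84 h, yet the test across the times did not pass (adjusted p = 0.0611). Of 10 genes tested, 2 rose from 108 h to 132 h (0.727% of all genes were higher). These were Kcnk3, a potassium channel of brown fat (0.50 ± 0.11, adjusted p = 0.0138; means 237 ± 28.5, 245 ± 20.1, 174 ± 15.8 and 247 ± 44.8 CPM), and Cidea, a lipid droplet protein (0.56 ± 0.14, adjusted p = 0.0366; means 356 ± 43.7, 345 ± 34.5, 257 ± 30.5 and 378 ± 105 CPM). Both calls were lost with GC and length offsets (adjusted p = 0.275 and 0.431).

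Skin and hair genes had large fold differences and a large spread. All 21 tested skin and hair genes lay above 0 from 60 h to 108 h (median 6.05 on the log2 scale), and none passed in that comparison. Of the 21, 10 differed across the 4 times, where 8.63% of all genes did. Krt86, a hair keratin, was at most 0.540 CPM at 60 h and 84 h, but reached 77.5 CPM at 108 h and 91.6 CPM at 132 h, with 0.0632 and 0.138 CPM in replicates 3 and 4 of 108 h (adjusted p = 0.0244). Krt5, a keratin of basal cells of skin and gland alike, was 16.9, 1.47, 0.574, 2.29 and 2.82 CPM at 60 h, 6.23, 0.468, 6.03, 18.5 and 8.09 CPM at 84 h, 76.5, 212, 7.27, 17.9 and 25.2 CPM at 108 h and 404, 96.9, 151, 3.20 and 8.71 CPM at 132 h (adjusted p = 0.0436). Its highest values were in the libraries high in Krt86. Of the basal genes, 4 of 15 (Krt5, Krt17, Sfn and Lgr5) differed across the times, as did 2 of 21 luminal genes (Spint1 and Prom2), against 8.63% of all genes. With GC and length offsets no gene of the skin and hair, basal or luminal list did, where 1.1% of all genes did. Without the 6 libraries high in skin and hair genes none of them did, where 49 of all genes did. That fit has fewer libraries at 108 h and 132 h, and the 6 were chosen by the skin and hair list itself. Krt8, a keratin of luminal cells, averaged 3.38 ± 3.40, 6.23 ± 5.96, 11.5 ± 5.38 and 7.45 ± 5.07 CPM (adjusted p = 0.416).

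The estrogen receptor gene Esr1 was at 105 ± 19.8, 101 ± 22.3, 127 ± 10.7 and 104 ± 4.99 CPM (adjusted p = 0.212), and the progesterone receptor Pgr was at 1.10, 1.10, 2.43 and 1.26 CPM (0.266). Areg was the 1 of 14 tested estrogen receptor targets to differ across the times (adjusted p = 0.0291), where 8.63% of all genes did, at mean levels of 0.0250, 0.0442, 0.533 and 0.908 CPM. It was highest, between 1.38 and 1.86 CPM, in replicate 2 of 108 h and replicates 1, 2 and 3 of 132 h, which are 4 of the 6 libraries high in skin genes. No gene of the list passed with GC and length offsets, where 1.1% of all genes did. None passed without those 6 libraries, where 49 of all genes did. Tgfa, another ligand of the epidermal growth factor receptor, was 6.08, 16.2, 3.16, 3.64 and 2.96 CPM at 108 h and 17.99, 12.4, 13.2, 2.69 and 2.97 CPM at 132 h, with means of 2.80 ± 0.628 and 2.46 ± 0.534 CPM at 60 h and 84 h (adjusted p = 0.041). It too was highest in those libraries, and the part of skin in its level was not tested.

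Stromal and immune genes moved in small steps. Of 20 collagen and matrix genes, 8 differed across the times (Col3a1, Col5a1, Col5a2, Col6a1, Col6a2, Col6a3, Eln and Postn), where 8.63% of all genes did. With GC and length offsets 0 of the 20 did, where 1.1% of all genes did. Col6a1 was 893, 927, 934, 828 and 883 CPM at 60 h and 752, 756, 681, 775 and 709.7 CPM at 132 h, with means of 893 ± 42.4, 922 ± 24.5, 788 ± 92.0 and 735 ± 38.2 CPM (adjusted p = 0.0194). Col1a1, the main fibrillar collagen, averaged 5402, 6201, 5320.5 and 4884 CPM (adjusted p = 0.107). From 108 h to 132 h the fibroblast proteoglycans Lum (-0.51 ± 0.09, adjusted p = 0.00414) and Dcn (-0.33 ± 0.08, 0.0359) fell, 2 of 14 genes of that list. Igf1, a growth factor made by stroma, fell with them (-0.53 ± 0.14, adjusted p = 0.0446; means 257 ± 43.0, 234 ± 55.1, 322 ± 34.8 and 222 ± 20.1 CPM), as did Mrc1 of macrophages (-0.45 ± 0.12, 0.0375) and Tek of endothelium (-0.28 ± 0.06, 0.0228), each 1 gene of its list. In that step 2.46% of all genes were lower, and none of Lum, Dcn, Igf1, Mrc1 and Tek passed with the offsets (adjusted p from 0.0984 to 0.753). The macrophage gene Adgre1 averaged 46.0, 35.6, 46.9 and 26.3 CPM (adjusted p = 0.172). In a bulk gland, fewer cells of a type and less RNA per cell cannot be told apart.

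No gene of the cell division list was called in any comparison, although 33 of 33 lay above 0 from 60 h to 108 h (median 0.56) and 30 of 33 from 84 h to 132 h (median 0.14). Mki67, a marker of cycling cells, averaged 21.4 ± 5.50, 24.1 ± 5.43, 36.1 ± 17.6 and 31.0 ± 10.9 CPM (adjusted p = 0.211). The lymphocyte, interferon, inflammation, stress, immediate early, glucocorticoid, cholesterol synthesis and milk protein lists also had 0 genes called across the times.

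The 20 libraries of treated mice, fitted with the untreated ones, showed no gene past the threshold between the tables (0 of 17852, 1152 at an unadjusted p under 0.05; 1 gene by limma on RPKM). The untreated libraries in that fit called 1064 genes (5.96%), and the difference between treated and untreated passed for 0 genes (1941 at an unadjusted p under 0.05). Of the 605 genes lower in the second table of untreated libraries, 513 had the same sign in the treated ones, with a median of -0.057 there, and of the 258 higher genes 143 did, against 9946 of 17201 genes in all. For Calcrl the treated libraries gave -0.09 ± 0.07 (adjusted p = 0.904), and the difference from the untreated ones was 0.44 ± 0.10 (adjusted p = 0.132, edgeR).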

How the data were processed

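Counts per gene were deposited by the authors in 2 tables, 60 h with 108 h and 84 h with 132 h, and RPKM (reads scaled to gene length and library size) in a matching pair, each of 47729 genes. All sample columns were used. Per the labels' protocols, libraries were stranded, poly(A) selected, made with 10 cycles of PCR from RNA of quality number 7.5 to 9.4, pooled and run over 4 lanes. Per the submitters' processing notes the build was GRCm38. Not given in the sources used here were aligner, counter and annotation. The 5 samples of a group are biological replicates per the series' design.

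Genes were kept by filterByExpr (minimum count 10, minimum total 15). The 20 untreated libraries entered 1 edgeR 4.0.16 quasi-likelihood fit (R 4.3.3, TMM scaling, robust), with Benjamini-Hochberg adjustment at 0.05 over 17204 genes. DESeq2 1.42.0 on the counts, limma 3.58.1 on log2(RPKM + 0.1) or + 1, other scalings and filters, covariates, left-out libraries, and per-library offsets for GC content and transcript length (GENCODE M21, 98.6% of tested genes) were the alternatives. The offsets, the cutoff of 3 on skin genes, the removal of genes with counts over 10 times their RPKM and the contrast of treated libraries were added after the data were seen. The fit was tested on simulated counts. No pair of libraries agreed within sampling noise (190 pairs, lowest chi-square per gene 13.0).

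Genes named were the 12 of smallest p across the times, up to 4 rises and 4 falls per contrast (mean log2 CPM of at least 1, no overlap between times, no predicted symbols), up to 4 called members of each of 34 lists, a fixed panel of 16, and 8 variable and 6 steady genes. Others, such as further called members of a list, were chosen after their values were seen. Some genes that met the rule are not reported here. The members and the lists were chosen with earlier results of these data known. Mitochondrial shares were compared by an exact permutation test. Coordinates are GENCODE M21 on GRCm38, 1-based. Fold changes are log2, with standard errors from the F statistic.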

Additional observations from a re-analysis of the deposited data

Results flagged for a closer look

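In 13 cases a single library stood apart from the other 4 of its time in a list mean or a gene of the fixed panel, among 208 checks in groups of 5, where chance marks about 1 in 20. In 60 h replicate 2 the interferon response list averaged 6.78 log2 CPM (others 3.51 to 4.22) and the clock list 5.14 (5.46 to 5.55). In 60 h replicate 1 Krt8 was 9.20 CPM (0.258 to 2.66), Krt14, a basal keratin, 12.9 CPM (0.373 to 1.68) and Mki67 31.0 CPM (17.7 to 20.0). The milk protein list averaged -2.70 in 60 h replicate 3 (-0.253 to 0.706). At 84 h, Lep was 633 CPM in replicate 3 (188 to 299) and Adgre1 58.2 CPM in replicate 4 (27.9 to 32.9). At 108 h, the brown and beige fat list averaged 5.89 in replicate 3 (6.05 to 6.11), the mitochondrial genome list 8.63 in replicate 1 (8.40 to 8.46) and Areg 1.86 CPM in replicate 2 (0.0316 to 0.376). At 132 h, the adipocyte progenitor and fibroblast list averaged 6.60 in replicate 3 (6.69 to 6.70) and Krt14 244 CPM in replicate 1 (2.57 to 62.2).

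For 8 genes the change from 84 h to 132 h differed from that from 60 h to 108 h, by the edgeR test of the difference. Among them, the difference was 0.75 for Plekhh3 (-0.35 in the first table and 0.40 in the second), -1.17 for Pde1c (1.25 and 0.08), -1.08 for Ntm (1.28 and 0.20), -0.84 for Cntnap2 (0.72 and -0.12), -1.26 for Gm4876 (0.75 and -0.51), -0.53 for Loxl2 (0.16 and -0.37) and -0.56 for Lpar1 (0.28 and -0.28), with adjusted p of these from 0.000237 to 0.0165. Gm4876 is a predicted gene that overlaps Tes. The 4 genes Pde1c, Ntm, Cntnap2 and Gm4876 did not pass in RPKM (adjusted p = 0.962, 0.805, 0.679 and 0.754).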

How the results depend on the processing

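Counts are given in the order across the 4 times, 108 h against 60 h, 108 h against 84 h, 132 h against 108 h, 84 h against 60 h, 132 h against 84 h, and between the tables, which were 1484, 194, 570, 549, 37, 0 and 863. DESeq2 gave 3062, 1485, 1382, 1053, 379, 346 and 1522, and 97 in place of 8 for the difference of the 48 h changes. Without a filter on low counts they were 878, 62, 311, 329, 20, 0 and 565. limma on log2(RPKM + 0.1) gave 685, 42, 641, 609, 0, 0 and 865, and on log2(RPKM + 1) 686, 46, 649, 633, 0, 0 and 885, with 0 for the difference in both. On log2(RPKM + 0.1), the only RPKM scale run for treated libraries, 1 gene in place of 0 was called between the tables of those libraries. All 40 libraries in the fit gave 2385, 895, 650, 491, 63, 410 and 1064. The run of title numbers as a term gave 1316, 98, 997, 281, 12, 146 and 1192, and 2 for the difference. The skin and hair mean as a term gave 644, 10, 190, 729, 109, 0 and 1224. Without the 6 libraries high in skin genes the counts were 49, 9, 23, 260, 9, 0 and 399, and without the 5 above 3 they were 335, 165, 179, 329, 55, 0 and 602. GC and length offsets gave 186, 92, 36, 53, 5, 0 and 84. Without genes with counts over 10 times their RPKM the difference had 4 genes. RLE and upper-quartile scaling and the stricter filter kept each count within 1.5 times.

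Leaving out 1 library at a time gave 540 to 1853 genes across the times, 17 to 387 for 108 h against 60 h, 180 to 746 for 108 h against 84 h, 292 to 758 for 132 h against 108 h, 0 to 126 for 84 h against 60 h, 0 to 1 for 132 h against 84 h, 576 to 1139 between the tables and 7 to 11 for the difference. For 108 h against 60 h the count was 17 without 60 h replicate 4 or 108 h replicate 2, 20 without 108 h replicate 4, 23 without 108 h replicate 5, 25 and 37 without 60 h replicates 5 and 3, 387 without 132 h replicate 4 and 372 without 60 h replicate 1. Across the times it was 540 without 60 h replicate 4, 556 without 132 h replicate 3 and 626 without 60 h replicate 3. From 84 h to 108 h it was 180 and 188 without 84 h replicates 1 and 2 and 203 without 108 h replicate 2, and from 108 h to 132 h it was 292 and 303 without 132 h replicates 4 and 3.

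The sign turned in RPKM (+ 0.1, + 1) for Xlr5a from 108 h to 132 h (0.21, 0.053) and between the tables (0.21, 0.055), Mpped1 (-0.0063, -0.00068), Camk1d (-0.079, -0.051) and Afm (0.47, 0.18) between the tables, and for the mitochondrial share of 132 h minus 84 h without 132 h replicate 4 (-0.141 percentage points; up to 0.339 without another). The 108 h minus 84 h share passed without 108 h replicate 1 (-0.92, adjusted p = 0.0159, exact permutation test). The RPKM of Afm was 2.55 in 132 h replicate 1, the library with liver genes, and at most 0.0094 in the others. Causes of these shifts were not tested. Of the tests of named genes under alternatives other than left-out libraries, 1537 kept their side of the threshold, 591 lost it, 19 gained it and 10 turned. No paired analysis was possible because each mouse was sampled at a single time and the labels link no mice across times. The number of counts per library limits genes at low levels, such as Areg.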

Other observations

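Among abundant genes (averaging 5 or more in log2 CPM), skin and hair genes left out, those that varied most between mice of the same time were Saa3, Alb, Fkbp5, Zbtb16, Acly, Ncan, Thbs1 and Ighm. Saa3, an acute-phase serum amyloid A made in fat, ranged from 1.48 to 346 CPM over the 20 libraries, with 170.2, 156, 15.2, 1.48 and 323 CPM at 60 h and 120.1, 4.51, 3.59, 4.35 and 320.1 CPM at 132 h. High and low values occurred at every time. Fkbp5 and Zbtb16 are induced by glucocorticoid. Fkbp5 was 20.3, 18.3, 113, 63.8 and 101 CPM at 60 h and 19.7, 75.7, 11.9, 69.0 and 10.3 CPM at 132 h. Zbtb16 was 98.0, 39.6, 436, 324 and 370.3 CPM at 60 h and 78.5, 347, 96.5, 343 and 87.2 CPM at 132 h, and at every time its highest library was also that of Fkbp5. Acly, which makes cytosolic acetyl-CoA for fat synthesis, ranged from 721 to 6586 CPM, and Ighm, the heavy chain of immunoglobulin M, from 27.8 to 208 CPM.

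The genes that varied least over all 20 libraries were Ppp2r5c, Eif4h, Slu7, Gtf2i, Rbbp7 and Chmp3. Ppp2r5c, a regulatory subunit of protein phosphatase 2A, lay between 100.3 and 109.8 CPM and Eif4h, a translation initiation factor, between 229 and 249 CPM, an SD of 0.033 and 0.035 on the log2 scale over 20 libraries.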
